A study of Mus musculus with 6 samples.

Results

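The genes described here were *Ddit4* and 9 genes of the Atf4 stress response, namely *Atf4*, *Ddit3*, *Asns*, *Trib3*, *Chac1*, *Psat1*, *Phgdh*, *Sesn2* and *Slc7a11*. They were 10 of the 16668 genes listed in each library. *Ddit4* was chosen by its RPKM values, which varied among these libraries, and the other 9 were taken as genes of one pathway. The levels of *Ddit4* are therefore given as a description without a test. The RNA came from E14, a line of mouse embryonic stem (mES) cells of strain 129/Ola with wild type genotype, kept without feeder cells. According to the study, the cells were transfected with a control siRNA or with siRNA against Ring1B or Dzip3, which are both H2A ubiquitin ligases. All groups were cultures of this line in 2i medium (the inhibitors PD0325901 and CHIR99021) plus LIF, at passage 3-5. There were 6 libraries under 3 labels (control, Ring1B-KD and Dzip3-KD), 2 for each label, which the study calls biological duplicates.

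Atf4 is a transcription factor whose mRNA is translated when the initiation factor eIF2α is phosphorylated by kinases that sense amino acid shortage, misfolded proteins in the endoplasmic reticulum, double-stranded RNA or a lack of heme. It induces genes for amino acid synthesis, amino acid uptake and the charging of tRNA. Ddit4 (also called REDD1) is an inhibitor of the growth kinase complex mTORC1, and it can be induced by Atf4 as well as by hypoxia, glucocorticoids and p53. Pluripotent cells in culture divide quickly and depend on a steady supply of amino acids.

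The libraries are named here by the number in the deposited file. Library 1 was labelled control 1, library 2 control 2, library 3 Ring1B-KD 1, library 4 Ring1B-KD 2, library 5 Dzip3-KD 1 and library 6 Dzip3-KD 2. The condition word in the file name was control for libraries 1 and 4, Ring1BKD for libraries 2 and 5, and Dzip3KD for libraries 3 and 6, so word and label were different in 4 cases of 6. Libraries 1 to 3 (set 1) and libraries 4 to 6 (set 2) formed separate clusters, with correlations of log2 values of 0.960 to 0.974 within sets and 0.940 to 0.957 between them. Both libraries labelled control lay in set 1 and both labelled Dzip3-KD in set 2, so this label contrast and the sets cannot be told apart. *Rnf2*, which encodes Ring1B, was measured at 30.6, 20.4, 26.8, 28.8, 19.4 and 28.2 RPKM (reads scaled to exon length and to library depth) in libraries 1 to 6. Its lowest value in each set was in the library with the file word Ring1BKD (libraries 2 and 5, labelled control 2 and Dzip3-KD 1). *Dzip3* stood at 2.24, 2.68, 1.18, 1.89, 1.70 and 1.31 RPKM, with the lowest value of each set in the library with the word Dzip3KD (libraries 3 and 6, labelled Ring1B-KD 1 and Dzip3-KD 2). In each set, the lowest value of both targeted genes thus went with the file word, although neither passed the test by word (limma adjusted p = 0.232 for *Rnf2* and 0.754 for *Dzip3*). The values of *Dzip3* rested on 23 to 53 reads, with 32 in library 5 and 27 in library 6. By label, *Rnf2* was not lower in Ring1B-KD than in control (log2 difference 0.15, SE 0.24, limma adjusted p = 0.965). *Dzip3* was lower in both Dzip3-KD libraries than in both control libraries (-0.47, SE 0.24, limma adjusted p = 0.458). It was lower by a similar amount in both Ring1B-KD libraries (-0.46, SE 0.24, limma adjusted p = 0.902), so the label difference was not particular to Dzip3-KD. The difference of *Dzip3* by the word Dzip3KD was also similar, at -0.45 (SE 0.21). Groups below are still named by label, since groups were taken from the labels, and no knockdown is asserted for a library. Recovered depths ran from 3015349 to 3583611 mapped reads. All 8 pluripotency markers examined were expressed (*Pou5f1* between 248 and 433 RPKM), whereas 0 of 5 primitive endoderm markers and 1 of 4 fibroblast markers reached a mean of 0.5 RPKM. Of 6 neuroectoderm and mesoderm markers, 2 reached it, *Nes* (1.79, 4.38, 2.56, 5.28, 7.05 and 5.60 RPKM) and *Sox1* (1.73, 1.44, 1.69, 3.00, 2.20 and 1.87 RPKM), and both had all of set 2 above all of set 1. The sum of these 6 markers came mostly from *Nes* and *Sox1*. It was 4.31 to 6.41 RPKM in set 1 and 8.77 to 9.80 RPKM in set 2. The sum thus moved with the set differences given below, and its part in them was not tested. Of the 6, *T* and *Mixl1* had higher means in set 1, on at most 4 reads in a library. The sum of the primitive endoderm markers was higher in set 1, at 0.964 to 1.34 RPKM against 0.654 to 0.896 RPKM.

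Sequences before the start sites are shown first, as examples of the response elements of the 2 stress pathways described below. The Atf4 response element was searched as TGATGNAA on both strands, from 250 bases before to 50 bases after each start in RefSeq promoters of GRCm38.p6. All 10 genes had a promoter entry. The element was present in 3.97% of 32851 promoters and in 4 of the 10 genes, *Asns*, *Trib3*, *Chac1* and *Slc7a11*. The endoplasmic reticulum stress element, searched as CCAAT, 9 bases of any kind and CCACG, was present in 0.119% of promoters and in none of the 10 genes. For comparison, it was found in 7 of 16 matched genes of the endoplasmic reticulum chaperone list. The shorter letters ACGTG, the core of the hypoxia response element, were in 19.6% of promoters and in 4 of the 10 genes, among them *Ddit4*. In the 10 genes, no match of one motif overlapped a match of another. A match gives letters in a window and does not show binding. In the stretches that follow, capitals mark the motif, positions count back from the start at -1, and all read 5′ to 3′ on the strand of the gene. *Asns* is shown from -100 to -1 (chr6:7693210-7693309, minus strand), with its element at -23. *Slc7a11* is shown over the same positions (chr3:50443614-50443713, minus strand) and holds the element at -66 and, on the opposite strand, at -47. *Chac1* is shown from -230 to -131 (chr2:119351012-119351111, plus strand), with the element on the opposite strand at -193. *Ddit4* is shown from -230 to -131 (chr10:59951901-59952000, minus strand), with ACGTG at -187. *Hspa5*, which encodes the chaperone BiP, is shown from -120 to -21 (chr2:34771970-34772069, plus strand) as an example of the other element, at -65.
Asns: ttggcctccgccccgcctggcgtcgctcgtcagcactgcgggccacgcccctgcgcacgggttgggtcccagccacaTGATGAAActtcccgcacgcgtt
Slc7a11: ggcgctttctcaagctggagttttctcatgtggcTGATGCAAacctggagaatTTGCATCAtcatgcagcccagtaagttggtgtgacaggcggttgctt
Chac1: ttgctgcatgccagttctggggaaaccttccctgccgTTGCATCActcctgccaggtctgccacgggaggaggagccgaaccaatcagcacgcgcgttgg
Ddit4: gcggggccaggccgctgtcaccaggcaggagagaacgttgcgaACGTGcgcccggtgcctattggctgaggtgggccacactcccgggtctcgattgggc
Hspa5: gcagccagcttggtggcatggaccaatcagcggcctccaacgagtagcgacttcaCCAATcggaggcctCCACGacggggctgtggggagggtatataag

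*Ddit4* (chromosome 10, 59412423 to 59414518, minus strand, mm9) was measured at 25.0 RPKM in library 1 and 25.3 RPKM in library 2, both with the label control. It stood at 12.3 RPKM in library 3 and 11.3 RPKM in library 4 (label Ring1B-KD), at 14.7 RPKM in library 5 and at 19.9 RPKM in library 6 (label Dzip3-KD). These values rested on 127, 146, 70, 63, 81 and 120 reads in libraries 1 to 6. The highest level was 2.23 times the lowest. As a measure of the precision at this depth, the exact 95% Poisson interval was 20.8 to 29.7 RPKM in library 1 and 8.69 to 14.5 RPKM in library 4, which covers counting error only. By label, the mean of control was 25.1 ± 0.187 RPKM (SD, n = 2). That of Ring1B-KD was 11.8 ± 0.707 RPKM (SD, n = 2), with Dzip3-KD between them at 17.3 ± 3.65 RPKM (SD, n = 2). By set, the 3 values of libraries 1 to 3 (12.3 to 25.3 RPKM) overlapped the 3 of libraries 4 to 6 (11.3 to 19.9 RPKM), because library 3 fell among the latter. The set means were 20.9 and 15.3 RPKM, 1.36 times higher in set 1, a log2 difference of -0.39 in the direction of most of the other genes. In bulk RNA such as this, fewer expressing cells and less RNA per cell cannot be told apart.

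**Figure D1:**
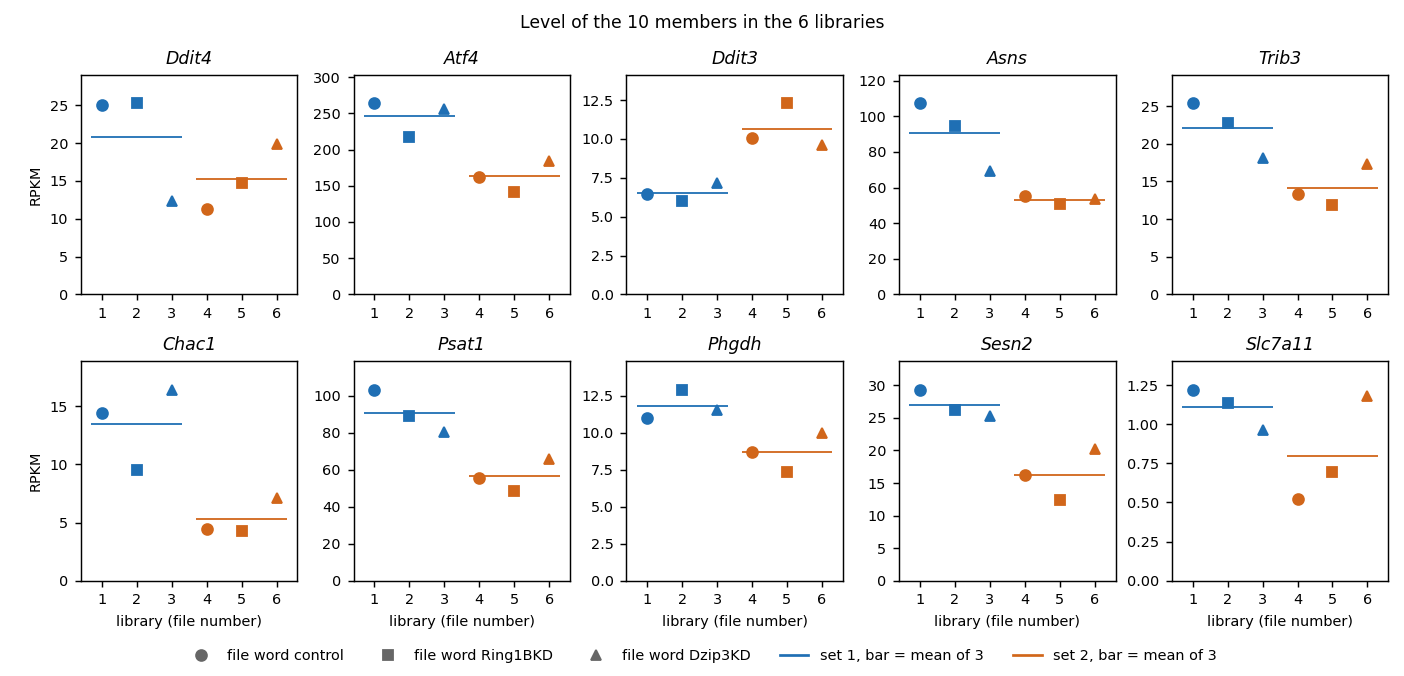
Level of each of the 10 genes (RPKM, linear axis from 0) against library number, with blue points for libraries 1 to 3, orange points for libraries 4 to 6, the symbol giving the file word and the bar the mean of the 3 libraries of a set. Blue points lie above all orange points for *Atf4*, *Asns*, *Trib3*, *Chac1*, *Psat1*, *Phgdh* and *Sesn2* and below them for *Ddit3*, and the colours overlap for *Ddit4* and *Slc7a11*.

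*Atf4* (chromosome 15, 80085614 to 80087970, plus strand, mm9) was the most abundant of the 10, with a mean of 204 RPKM over the 6 libraries. It was measured at 264, 218, 255, 163, 141 and 185 RPKM in libraries 1 to 6. All 3 libraries of set 1 lay above all 3 of set 2, and the mean was 1.51 times higher in set 1. Library 3, in which *Ddit4* was low, had the second-highest *Atf4* level, at 255 RPKM from 1490 reads. *Ddit4* and *Atf4* thus differed in where library 3 stood.

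Among genes of amino acid metabolism, *Asns*, which encodes asparagine synthetase, was at 107, 94.7, 69.1, 55.3, 50.7 and 53.4 RPKM in libraries 1 to 6. Each library of set 1 exceeded each of set 2, with a mean 1.70 times higher, and library 3 was the lowest of set 1. *Psat1*, the second enzyme of serine synthesis, was at 103, 88.9, 80.3, 55.6, 48.3 and 66.1 RPKM, again with set 1 above set 2, by 1.60 times. *Phgdh*, the first enzyme of that pathway, stood at 11.0, 12.9, 11.6, 8.73, 7.36 and 9.99 RPKM. The sets of *Phgdh* did not overlap either, but the gap between 11.0 and 9.99 RPKM lay within the counting intervals of the 2 libraries. *Slc7a11*, the cystine transporter that supplies glutathione synthesis, was the lowest of the 10, at 1.22, 1.14, 0.964, 0.525, 0.697 and 1.18 RPKM from 16 to 39 reads. Its sets overlapped, since library 6 lay among the libraries of set 1.

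The remaining targets are regulators. *Chac1*, an enzyme that degrades glutathione, had the widest range, at 14.4, 9.48, 16.4, 4.44, 4.29 and 7.11 RPKM. Set 1 was above set 2 by 2.54 times, and the highest library was 3.83 times the lowest, on 22 to 87 reads. Library 3, the lowest of set 1 for *Ddit4*, held the highest level of *Chac1*. *Trib3*, a pseudokinase that restrains Akt and Atf4 signalling, was at 25.4, 22.7, 18.1, 13.3, 11.9 and 17.3 RPKM. *Sesn2*, an amino acid sensor that inhibits mTORC1, was at 29.4, 26.1, 25.3, 16.2, 12.3 and 20.2 RPKM. For both regulators all libraries of set 1 exceeded those of set 2, by 1.56 times for *Trib3* and 1.66 times for *Sesn2*. The counting intervals of the nearest libraries overlapped, however. For *Trib3* they were 15.0 to 21.5 RPKM in library 3 and 14.4 to 20.6 RPKM in library 6. For *Sesn2* they were 22.2 to 28.9 and 17.4 to 23.2 RPKM in the same libraries. For *Chac1* they were 7.06 to 12.5 RPKM in library 2 and 5.08 to 9.69 RPKM in library 6.

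*Ddit3* went the other way. This gene encodes Chop, a transcription factor that is induced when stress of the endoplasmic reticulum persists. It was at 6.47, 6.02, 7.15, 10.1, 12.3 and 9.61 RPKM in libraries 1 to 6, from 17 to 35 reads. Each library of set 2 was above each of set 1, by 1.63 times in the mean. The counting interval of library 3 was 4.42 to 10.9 RPKM and that of library 6 was 6.48 to 13.7 RPKM, so the libraries nearest to each other did not differ beyond counting error.

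In order of mean level, the genes were *Atf4* at 204 RPKM, *Psat1* at 73.8, *Asns* at 71.8, *Sesn2* at 21.6, *Trib3* at 18.1, *Ddit4* at 18.1, *Phgdh* at 10.3, *Chac1* at 9.35, *Ddit3* at 8.60 and *Slc7a11* at 0.954 RPKM. These levels are per length and may be compared between genes. The ranges of neighbours in this order overlapped over the 6 libraries except between *Atf4* and *Psat1*, between *Asns* and *Sesn2*, and between *Ddit3* and *Slc7a11*.

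Counted together, 7 of the 10 genes had all libraries of set 1 above all of set 2, 1 had them below and 2 overlapped. For *Trib3*, *Sesn2*, *Chac1*, *Phgdh* and *Ddit3* the counting intervals of the nearest libraries overlapped. Of all 11538 genes tested (mean of at least 0.5 RPKM, which all 10 genes reached), 15.5% lay above, 13.1% below and 28.6% in either direction. The median difference, set 2 minus set 1 on the log2(RPKM + 1) scale, was -0.60 for the 10 genes and -0.04 for all genes tested. The sets were recognised in these data and 3 against 3 libraries cannot give an exact p below 0.10, so no test was made of the set difference.

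The wider set of Atf4 targets gave the same picture with exceptions. Of 47 tested genes in 4 lists of its targets, 27 were above in set 1, 1 was below and 19 overlapped, with a median difference of -0.47. All genes tested had shares of 15.5% above in set 1 and 13.1% below. The lists differed among themselves. Of 13 genes for aminoacyl-tRNA synthetases and tRNA export, 11 were above in set 1 and the median was -0.56. *Gars*, which charges glycine tRNA, was at 40.7, 39.9, 39.7, 20.0, 19.2 and 22.8 RPKM in libraries 1 to 6, a mean 1.94 times higher in set 1 with little spread in either set. *Nars* (asparagine) had means of 58.3 and 35.3 RPKM in set 1 and set 2, and *Cars* (cysteine) had means of 9.57 and 6.24 RPKM. Of 13 genes for amino acid synthesis and one-carbon metabolism, 9 were above in set 1, with a median of -0.60. *Shmt2*, which converts serine to glycine in mitochondria, was at 58.8, 51.9, 61.5, 28.0, 23.6 and 25.4 RPKM, a mean 2.24 times higher in set 1. *Pck2*, the mitochondrial form of phosphoenolpyruvate carboxykinase, was 2.01 times and *Bcat1*, a branched-chain aminotransferase, 1.69 times higher in set 1. 

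Transcription factors and transporters were less uniform. Of 12 regulators, 5 were above in set 1 and 0 below, with a median of -0.28. *Nupr1*, a stress-induced chromatin protein, was at 36.6, 26.1, 55.9, 24.2, 17.1 and 22.7 RPKM, and *Ppp1r15a* (Gadd34), which directs the phosphatase that reverses eIF2α phosphorylation, was at 26.2, 29.6, 38.9, 17.8, 20.7 and 17.5 RPKM. Both were highest in library 3, as was *Chac1*, in contrast to *Ddit4*. *Gdf15*, a secreted stress factor, overlapped between sets, at 6.71 ± 0.817 RPKM (SD, n = 3) in set 1 and 6.96 ± 2.64 RPKM (SD, n = 3) in set 2. Of 9 transporter genes, 2 were above in set 1 and 1 was below, against 15.5% and 13.1% of all genes tested. The median was -0.15. *Slc1a4*, a transporter of neutral amino acids, was at 9.38, 10.4, 9.51, 3.93, 3.35 and 4.12 RPKM, a mean 2.57 times higher in set 1. *Slc38a2*, another such transporter, was at 34.7, 34.5, 27.2, 52.2, 46.0 and 70.1 RPKM and thus lower in set 1. *Slc1a5*, a glutamine transporter, overlapped, with means of 28.7 and 22.3 RPKM.

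Genes upstream of Atf4 had a smaller median difference. For comparison, 15.5% of all genes tested were above in set 1 and 13.1% below. Of 9 genes for eIF2α kinases and their control, 5 were above in set 1 and 1 below, with a median of -0.18. The one below was *Eif2ak3*, which encodes Perk, the eIF2α kinase of the endoplasmic reticulum, at 4.06, 4.09, 3.30, 6.06, 5.38 and 5.40 RPKM. *Eif2b5*, a subunit of the exchange factor that phosphorylated eIF2α inhibits, had means of 23.0 and 14.4 RPKM in set 1 and set 2. *Impact*, an inhibitor of the kinase Gcn2, and *Ppp1r15b*, the constitutive partner of the eIF2α phosphatase, overlapped between sets.

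Chaperones of the endoplasmic reticulum and genes of its Xbp1 and Atf6 arms went in the direction of *Ddit3*. All of set 1 lay below all of set 2 for 18 of 19 genes, against 13.1% of all genes tested. *Ern1* was the exception, and the median difference was +0.68. *Hspa5*, whose element is printed above, was at 107, 78.5, 76.9, 152, 171 and 188 RPKM in libraries 1 to 6. *Pdia6*, a disulfide isomerase, was at 29.3, 26.6, 27.1, 63.5, 66.0 and 81.7 RPKM, a mean 2.54 times higher in set 2. *Sdf2l1* and *Manf*, which assist BiP, were 2.42 and 2.24 times higher in set 2. The TGATGNAA letters were in 0 of 16 promoters of this list. They were in 6 of 12 for the Atf4-regulated transcription list, 5 of 8 for the synthetases, 3 of 11 for amino acid synthesis and 1 of 6 for the transporters. They were also in 0 of 6 for eIF2α control, 0 of 13 for the mTORC1 pathway and 0 of 6 for Nrf2 targets, lists of which several genes were above in set 1. Whether the letters go with the direction of single genes was not tested.

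**Figure D2:**
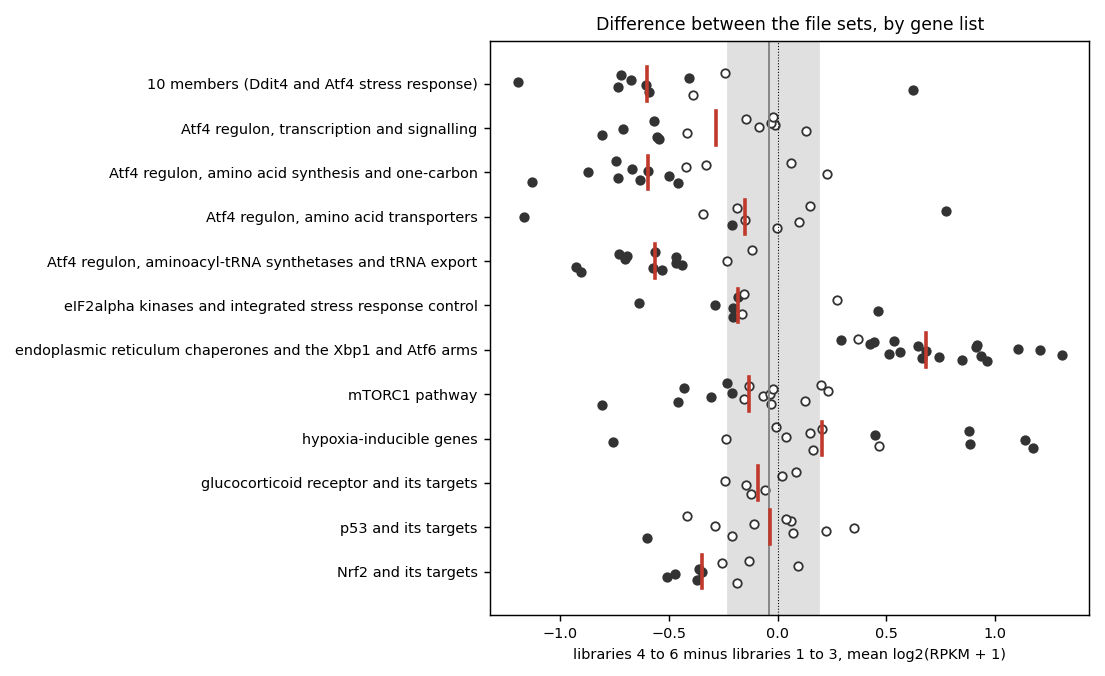
Difference between the file sets (libraries 4 to 6 minus libraries 1 to 3, mean log2(RPKM + 1)) for each gene of 12 lists, with filled points for genes whose sets do not overlap and red bars for the list medians. The grey line is the median and the grey band the middle 50% of all genes tested. The 10 genes have a median of -0.60 and the endoplasmic reticulum list one of +0.68.

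The file words were then compared within each set, with 1 library for each word and set. For *Ddit4*, the library with the word Dzip3KD was below that with the word control in set 1 (libraries 3 and 1, labelled Ring1B-KD 1 and control 1) by a log2(RPKM + 1) difference of -0.97. In set 2 it was above (libraries 6 and 4, labelled Dzip3-KD 2 and Ring1B-KD 2), with a difference of +0.76. The 2 sets thus gave opposite signs. For the word Ring1BKD the differences of *Ddit4* were +0.01 in set 1 (libraries 2 and 1, both labelled control) and +0.35 in set 2 (libraries 5 and 4, labelled Dzip3-KD 1 and Ring1B-KD 2). *Trib3* shared the pattern of *Ddit4* for Dzip3KD, at -0.47 and +0.36, and *Psat1* did so at -0.36 and +0.24. *Sesn2* stood at -0.20 and +0.30, and *Slc7a11* at -0.18 and +0.52. *Chac1* was higher with the word Dzip3KD in both sets, at +0.18 and +0.58, and *Asns* lower in both, at -0.63 and -0.05. *Atf4* differed little, at -0.05 and +0.18.

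**Figure D3:**
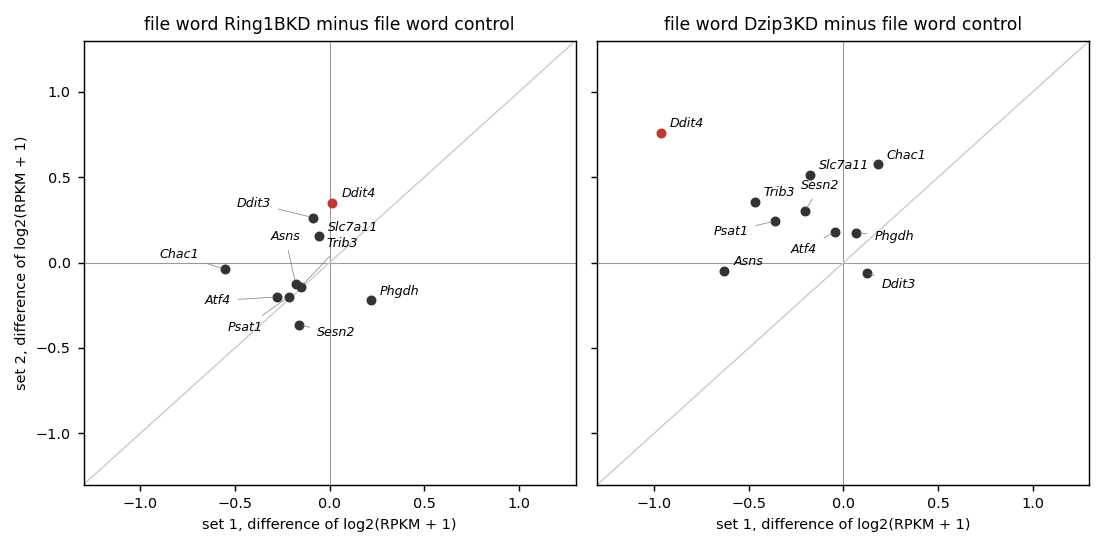
Difference of log2(RPKM + 1) between the library with the file word Ring1BKD (left) or Dzip3KD (right) and the library with the word control, in set 1 on the horizontal axis and set 2 on the vertical axis, for each of the 10 genes with *Ddit4* in red. The diagonal marks equal differences, and for Dzip3KD *Ddit4* lies far from it at -0.97 and +0.76.

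Fitted over both sets with the set as a block, 0 of the 9 genes other than *Ddit4* passed an adjusted p of 0.05 for the word Ring1BKD (limma adjusted p 0.631 to 0.999) or for the word Dzip3KD (0.754 to 0.983). Of all genes tested, 48 (0.416%) passed for Ring1BKD, or 3 without library 5, and 0 (0%) for Dzip3KD, where 752 genes had an unadjusted p under 0.05. The nearest of the 9 for Ring1BKD was *Atf4*, at -0.24 (SE 0.13, limma adjusted p = 0.631). The widest difference for Dzip3KD was that of *Chac1*, at 0.38 (SE 0.18, limma adjusted p = 0.754). For *Ddit4*, the fitted values were 0.18 (SE 0.35) for Ring1BKD and -0.10 (SE 0.35) for Dzip3KD, and both changed sign with the library left out. The value for Ring1BKD was 0.70 without library 1, 0.45 without library 5, -0.08 without library 2 and -0.33 without library 4. That for Dzip3KD was 0.68 without library 3, 0.41 without library 1, -0.62 without library 4 and -0.88 without library 6. With 2 residual degrees of freedom these fits resolve large differences only.

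Whether *Ddit4* moved with the Atf4 targets was described between and within the sets. Between the sets its mean differed in the direction of *Atf4* and by the same 1.36 times as *Phgdh*, but its values overlapped. Within set 1, 5 of the 9 other genes were lowest in library 3, as *Ddit4* was, namely *Asns*, *Trib3*, *Psat1*, *Sesn2* and *Slc7a11*, against 39% of all genes tested. The counting intervals of libraries 3 and 2 overlapped for *Trib3*, *Psat1*, *Sesn2* and *Slc7a11*, but not for *Ddit4* or *Asns*. Within set 2, 7 of the 9 were highest in library 6, as *Ddit4* was, and *Asns* and *Ddit3* were not, against 39.1% of all genes tested. Both features were seen in 4 of the 9 genes and in 19 of the 47 genes of the wider lists (40.4%), against 14.3% of all genes tested. The likeness to *Ddit4* was also described by the correlation of log2 values over the 6 libraries after the mean of each set was subtracted. It was 0.83 for *Trib3*, 0.78 for *Slc7a11*, 0.74 for *Asns*, 0.67 for *Psat1*, 0.43 for *Sesn2* and 0.33 for *Phgdh*. It was near 0 for *Atf4* (0.04) and below 0 for *Chac1* (-0.11) and *Ddit3* (-0.50). Of 3065 candidate genes whose mean reached 10 RPKM, 5.55% had a value at or above that of *Trib3*. The shares were 8.48% for *Slc7a11*, 11.0% for *Asns*, 15.3% for *Psat1*, 29.7% for *Sesn2* and 35.3% for *Phgdh*. None of these values was thus particular to the genes described. *Slc7a11*, with a mean of 0.954 RPKM, was itself far below the limit for candidates, so its share compares genes of unlike level. The 6 points share the 2 sets, and the measure was above 0.9 for none of the 9 genes and for 86 (2.81%) of the candidates. The most alike of these were *Smyd5* (0.998), *Rdm1* (0.996), *Zfp280b* (0.995), *Rps18* (0.994) and *Mars* (0.987). *Mars*, the methionine tRNA synthetase, belongs to the Atf4 lists and was at 18.6, 18.9, 16.0, 14.2, 14.7 and 16.2 RPKM. The other 4 belong to none of the lists examined. *Rps18*, a ribosomal protein gene, has many processed copies in the genome, and its reads may be divided among them.

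**Figure D4:**
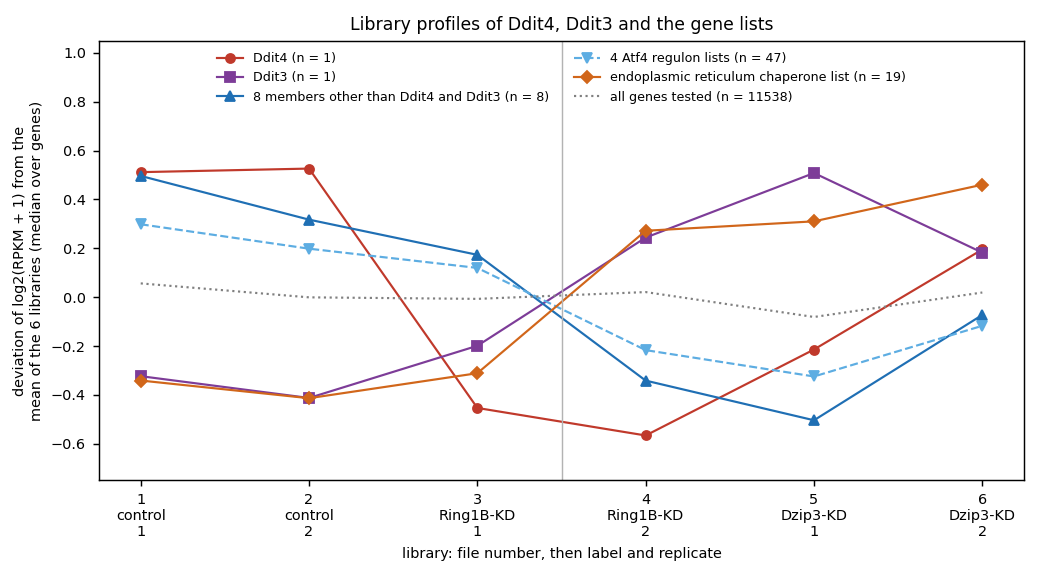
Deviation of log2(RPKM + 1) from the mean of the 6 libraries, by library with its label, for *Ddit4*, *Ddit3*, the median of the 8 other genes, the median of the 47 wider Atf4 targets, the median of the 19 endoplasmic reticulum genes and all genes tested. *Ddit4* goes from 0.53 in library 2 to -0.45 in library 3, and the 8 genes go from 0.32 to 0.17. The endoplasmic reticulum genes go from -0.31 in library 3 to 0.27 in library 4.

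By label, 0 of the 9 genes other than *Ddit4* passed an adjusted p of 0.05 in any contrast. No gene of the whole table did so (0%), although 589 genes for Ring1B-KD, 1411 for Dzip3-KD against control and 534 for Dzip3-KD against Ring1B-KD had an unadjusted p under 0.05. Without 1 of the libraries labelled Ring1B-KD, 25 (library 3 left out) or 27 genes (library 4 left out) passed for Dzip3-KD against control, none of them among the 9. In that contrast *Asns* had a log2 difference of -0.94 (SE 0.18, limma adjusted p = 0.254). *Chac1* was at -0.95 (SE 0.48, limma adjusted p = 0.452) and *Atf4* at -0.57 (SE 0.25, limma adjusted p = 0.409). *Ddit3* was at 0.71 (SE 0.22, limma adjusted p = 0.319). The adjusted p of the other 5 genes ran from 0.319 to 0.776. At an unadjusted p under 0.05, 5 of the 9 genes were lower and 1 was higher in Dzip3-KD, against 6.99% and 5.24% of all genes tested. For Ring1B-KD against control the 9 adjusted p-values were 0.902 to 0.953, and for Dzip3-KD against Ring1B-KD 0.864 to 0.949. The fitted differences of *Ddit4* were -1.03 (SE 0.19) for Ring1B-KD, -0.53 (SE 0.19) for Dzip3-KD and 0.50 (SE 0.19) for Dzip3-KD against Ring1B-KD. Ring1B-KD was the only label present in both sets, so the spread in these label fits includes the set difference. With the set as a block, the difference of *Atf4* turned to +0.09 for Ring1B-KD and +0.08 for Dzip3-KD, and that of *Chac1* to +0.46 and +0.73. The values for Ring1B-KD then rest on library 3 against libraries 1 and 2, all in set 1. The control and Dzip3-KD groups lie in different sets, so the values for Dzip3-KD rest on how the 2 libraries labelled Ring1B-KD differ from each other.

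Other genes tied to *Ddit4* were examined by list, beside 15.5% of all genes tested above in set 1 and 13.1% below. Of 15 genes of the mTORC1 pathway, 6 were above in set 1 and 0 below, with a median of -0.13. *Ddit4l*, the paralog of *Ddit4*, was at 9.87, 11.7, 10.9, 4.67, 6.97 and 5.74 RPKM, so that its sets did not overlap where those of *Ddit4* did. *Tsc2*, which encodes the mTORC1 inhibitor that acts after Ddit4, had means of 6.46 and 4.47 RPKM in set 1 and set 2, and *Txnip* overlapped. Of 13 tested hypoxia-inducible genes, 1 was above in set 1 and 5 were below, with a median of +0.20. The glucose transporter gene *Slc2a1* (2.33 times higher in set 2) and *Ldha* (1.89 times) were below in set 1, and *Pdk1* was above, at 1.86 times. Of 6 tested genes of the glucocorticoid receptor and its targets, 0 were above or below, and the values of *Sgk1*, *Fkbp5* and *Klf9* overlapped. Of 10 genes for p53 and its targets, *Trp53* itself was above in set 1, with its highest value of 83.3 RPKM in library 3, while *Bbc3* and *Pmaip1* overlapped. No gene of these 4 lists passed an adjusted p of 0.05 by label or by file word.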

How the data were processed

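RNA-seq libraries of E14 mES cells were made with a stranded mRNA kit and sequenced on a MiSeq instrument. The authors aligned reads to mm9 and deposited RPKM values, computed from reads assigned uniquely to a gene, as 1 list per library without pooling. The software version and gene annotation were not given in the sources used here. RPKM corrects for depth and exon length but not for RNA composition.

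The genes, file sets and gene lists were chosen with earlier results of these data known. All 10 genes are named. Of each other list, genes that passed a test and the 3 genes with the widest range among those with a mean of at least 5 RPKM are named, and the 5 genes most like *Ddit4* among those of at least 10 RPKM. *Hspa5*, *Eif2ak3* and *Ern1* were named after their values were seen. Groups came from sample labels.

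Values were analysed as log2(RPKM + 1) for 11538 genes whose mean reached 0.5 RPKM, with limma 3.58.1 (variance trend) in R 4.3.3 and Benjamini-Hochberg adjustment over all of them. Fold changes on this scale understate those of low genes. All 6 libraries entered 1 fit by label and 1 by file word with the set as a block. The p-values measure the spread between libraries. Whole reads were recovered from the steps of RPKM values (whole exon lengths of 100 to 20000 bp, tolerance 0.003%) for 15498 genes (93.0%), including all 10. Of 2000 genes drawn at random, 92.7% gave whole reads, against 7.25% once their values were multiplied by random factors (SD 5%). A gene had a median of 19 reads in a library, and 3 reads on a 2 kb transcript gave 0.419 to 0.497 RPKM. Intervals and floors cover counting error only, since duplicates cannot be recognised. The code was tested on simulated data. Gene positions are from GENCODE M1 (mm9) and promoter sequences from RefSeq (GRCm38.p6). Alternatives were another pseudocount, no filter, 75th percentile scaling, an unmoderated model, limma on recovered reads, blocks, and each library left out.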

Additional observations from a re-analysis of the deposited data

How the results depend on the processing

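The 7 of 10 genes and the 27 of 47 wider targets with set 1 above set 2 were the same counts under 75th percentile scaling and with recovered reads scaled to their total, where 13.7% and 12.9% of all genes lay above. With 1 library left out they were 7 to 8 and 27 to 34. None of the 9 genes other than *Ddit4* passed an adjusted p of 0.05 in any alternative run. The number of all genes called for the file word Ring1BKD was 48. A pseudocount of 0.1 gave 21, limma on recovered reads 87, and the number was 0 without the filter, without moderation or without the set block. With 1 library left out it ran from 3 to 61, and the 3 came without Dzip3-KD 1. For the word Dzip3KD, limma on recovered reads called 2 genes, and leaving out 1 library gave 0 to 4 (4 without Ring1B-KD 2 and 1 without Dzip3-KD 2). For Dzip3-KD against control by label, leaving out 1 library gave 0 to 27 genes, with 25 without Ring1B-KD 1 and 27 without Ring1B-KD 2. Limma on recovered reads called 2 genes there. The replicate block called 1 gene there and changed no other call, and same-numbered libraries did not deviate together (correlations of -0.036, -0.24 and 0.044), so they share only a number. The causes were not tested. The recovered-read alternatives, and those for the counts above, were chosen after seeing the data. Limma voom with TMM factors, planned for recovered reads, was not run.

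No fitted log2 difference that changed sign had passed the test. With the set as a block these were 0.09127 and 0.08133 for *Atf4* (Ring1B-KD and Dzip3-KD against control), 0.4582, 0.728 and 0.2698 for *Chac1* (these 2 and Dzip3-KD against Ring1B-KD), 0.1845 for *Slc7a11* (Dzip3-KD against control), and 0.1073 for *Trib3* and 0.02222 for *Psat1* (Dzip3-KD against Ring1B-KD). For *Phgdh* and the word Ring1BKD the sign changed to 0.09091 with 75th percentile scaling and to 0.08998 with recovered reads. With 1 library left out, the label differences ran from -0.5558 to 0.09127 for *Atf4* and from -1.223 to 0.4582 for *Chac1* (Ring1B-KD against control), from -0.3612 to 9.299e-05 for *Slc7a11* (Dzip3-KD against control), and, for Dzip3-KD against Ring1B-KD, from -1.412 to 0.2698 for *Chac1*, -0.3504 to 0.1479 for *Trib3*, -0.4997 to 0.02222 for *Psat1* and -0.0302 to 0.3349 for *Slc7a11*. Differences by the word Ring1BKD ran from -0.3108 to 0.008378 for *Asns*, -0.1357 to 0.3108 for *Ddit3*, -0.2459 to 0.2437 for *Phgdh*, -0.1769 to 0.2751 for *Slc7a11* and -0.3561 to 0.06189 for *Trib3*. By the word Dzip3KD they ran from -0.02816 to 0.1621 for *Atf4*, -0.15 to 0.2128 for *Ddit3*, -0.04137 to 0.2845 for *Phgdh*, -0.3573 to 0.2407 for *Psat1*, -0.2555 to 0.3527 for *Sesn2*, -0.1258 to 0.4629 for *Slc7a11* and -0.4663 to 0.3539 for *Trib3*. The set difference of *Slc7a11*, which rests on 16 to 39 reads, was -0.24 and moved to -0.48 with a pseudocount of 0.1 and to -0.46 with recovered reads.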

Other observations

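Genes of Nrf2, the transcription factor of the oxidative stress response, shared the direction of the Atf4 targets between the sets. Of 9 genes, 5 had all libraries of set 1 above all of set 2 and 0 had them below, with a median difference of -0.35 on the log2(RPKM + 1) scale. *Hmox1*, which encodes heme oxygenase, was at 42.7, 37.6, 41.9, 28.2, 26.4 and 30.3 RPKM in libraries 1 to 6. *Gclm*, a subunit of the enzyme that begins glutathione synthesis, had means of 19.5 and 13.6 RPKM in set 1 and set 2. *Gsr*, glutathione reductase, overlapped between sets. Of 8 pluripotency markers, 3 were above in set 1 and 2 below. Among all genes tested, the shares were 15.5% above and 13.1% below, for comparison with both lists. *Esrrb* had means of 124 and 91.7 RPKM and *Tfcp2l1* of 66.6 and 47.3 RPKM in set 1 and set 2, while *Pou5f1* overlapped. Their part in the differences of the Atf4 targets was not tested.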
